A study of Mus musculus with 8 samples.

Results

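The genes described here encode inhibitors of proteases and their close relatives. They were chosen by gene symbol, and 8 symbols were taken: *Wfdc1*, *Wfdc2*, *Slpi*, *Serpine2*, *Serpinf1*, *Serpina3n*, *Serpina3g* and *Cst3*. All 8 were listed among the 18957 genes of each count file, and 7 passed the filter on low counts that left 13036 genes for testing. *Slpi* did not pass it. The 8 genes were picked with the genotype difference of *Wfdc1* already known, so their differences are given as a description, without p-values, and nothing is read from whether a fit called them.

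The libraries came from cardiac fibroblasts of mouse ventricles, dispersed with collagenase and sorted by flow cytometry as PDGFRA-positive, lineage-negative, DAPI-negative cells from mice aged 3 to 4 weeks. RNA of WT and Pdgfra-Cre:LmnaF/F mice was sequenced after ribosomal RNA depletion, in 4 libraries each. In the second group, both alleles of *Lmna*, the gene of lamin A/C, carried loxP sites around an exon that a Cre recombinase removes, and the Cre came from a transgene driven by the *Pdgfra* promoter. The WT mice were littermates. No library of mice with the Cre alone is among the samples, so effects of the Cre and of the deletion cannot be told apart. The *Pdgfra* locus is also active in some cardiac myocytes during development, so the deletion in this model is not restricted to fibroblasts. A level is given below as CPM, the counts of a gene relative to the scaled total of its library, and a difference as the log2 fold change (log2FC) of Pdgfra-Cre:LmnaF/F against WT ± its standard error (SE).

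Total counts lay between 2080555 and 12502949, with WT replicate 2 the shallowest. *Lmna* lay between 274 and 483 CPM in the WT and between 90.4 and 130.0 CPM in the Pdgfra-Cre:LmnaF/F libraries, a log2FC of -1.72 (SE 0.22). The summed level of 8 fibroblast markers, among them *Pdgfra* and *Col1a1*, was high in every library, from 42216.5 to 58684 CPM. RNA of 4 Y-linked genes was present in WT replicates 1, 2 and 4 and in Pdgfra-Cre:LmnaF/F replicate 4, and near 0 in the other 4 libraries, so this split runs largely along the genotypes. The summed level of 18 genes of the response to tissue dissociation was also higher in all Pdgfra-Cre:LmnaF/F libraries (8253 to 13387.5 CPM) than in any WT library (2404 to 5823 CPM), with an exact permutation p of 0.0286, the smallest this design allows, and 0.129 after adjustment over 9 marker lists. The summed level of 6 endothelial markers did not overlap either, at 534 to 729 CPM in the WT and 409 to 514 CPM in the Pdgfra-Cre:LmnaF/F libraries, with the same exact permutation p-values. The other 7 lists overlapped between the genotypes, and *Elane* of the neutrophil list was the only marker that stayed at or below 3 counts in every library.

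Protease inhibitors set the range and duration of proteolysis outside cells. Proteins with a WAP domain, a small fold held by disulfide bonds between 8 cysteines, include inhibitors of leukocyte serine proteases. Most serpins trap serine proteases by offering them a bait loop and changing shape once it is cut, although some have lost that activity. Cystatins block cysteine proteases such as the cathepsins. Fibroblasts secrete members of all these families into the cardiac matrix.

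The coding sequences of the WAP domain are shown because it is the feature that places *Wfdc1* in a family with *Wfdc2* and *Slpi*. *Wfdc1* has 1 such domain in its coding sequence, in exon 2 of 7, and *Wfdc2* and *Slpi* have 2 each, of which the second is given. The sequences were read from GENCODE M21 transcripts on the mm10 build (GRCm38), in the direction of transcription, and capitals mark the codons of the 8 cysteines. The *Wfdc1* segment lies at chr8:119679316-119679432 on the plus strand (117 bases), the *Wfdc2* segment at chr2:164565806-164565919 on the plus strand (114 bases, exon 4 of 5), and the *Slpi* segment at chr2:164354892-164355005 on the minus strand (114 bases, exon 3 of 4).
Wfdc1: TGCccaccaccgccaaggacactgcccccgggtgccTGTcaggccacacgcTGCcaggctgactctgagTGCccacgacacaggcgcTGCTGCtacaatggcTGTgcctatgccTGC
Wfdc2: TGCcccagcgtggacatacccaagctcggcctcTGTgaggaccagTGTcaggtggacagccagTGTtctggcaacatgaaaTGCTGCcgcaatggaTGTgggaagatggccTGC
Slpi: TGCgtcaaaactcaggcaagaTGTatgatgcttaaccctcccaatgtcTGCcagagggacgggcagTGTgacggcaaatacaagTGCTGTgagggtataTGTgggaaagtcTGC
The spacing from cysteine 3 to cysteine 7, with 5, 5, 0 and 3 codons in between, is the same in all 3 segments, and the search pattern itself set all of it but the last gap. Before cysteine 3, the segments have gaps of 11 and 4 codons in *Wfdc1*, 10 and 3 in *Wfdc2* and 6 and 8 in *Slpi*, and the gap before cysteine 8 is 4 codons in *Wfdc2* and 3 in the other two. The segment spans 39 codons in *Wfdc1* and 38 in both *Wfdc2* and *Slpi*.

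*Wfdc1* encodes a secreted WAP-domain protein first described as a growth inhibitor released by prostate stroma. The gene (ENSMUSG00000023336.6) occupies chr8:119666365-119688222 on the plus strand. In replicate order, its level was 67.0, 54.3, 101 and 81.7 CPM in the WT, against 9.83, 12.4, 11.1 and 5.83 CPM in the Pdgfra-Cre:LmnaF/F libraries. Every Pdgfra-Cre:LmnaF/F library was below every WT library, and replicate 4 was the lowest of all. The levels averaged 76.1 ± 20.2 CPM in the WT and 9.78 ± 2.84 CPM in the Pdgfra-Cre:LmnaF/F libraries (SD, n = 4 each), and the replicates of both groups varied to a like degree, with coefficients of variation of 26.5% and 29.0%. The log2FC was -2.97 (SE 0.30, 95% interval -3.61 to -2.32), which is 7.81-fold lower. No test is given for this difference, since it led to the choice of the genes. In RNA of a sorted population, fewer cells that express a gene and less RNA per cell cannot be told apart.

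**Figure D1:**
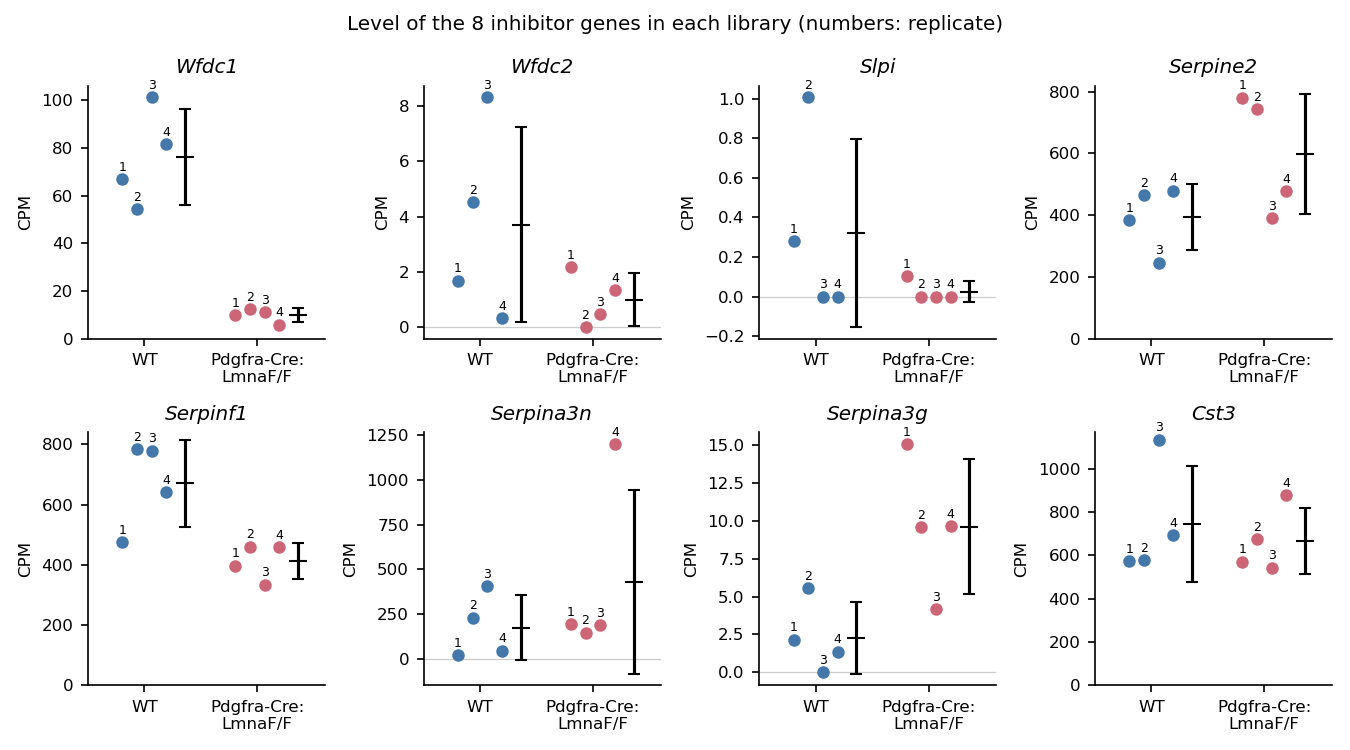
Level in CPM of each of the 8 genes in the 4 WT (blue) and 4 Pdgfra-Cre:LmnaF/F libraries (red), with replicate numbers above the points and the mean ± SD (n = 4) in black; the vertical scale differs between panels and an SD bar may reach below 0. The *Wfdc1* points lie between 54.3 and 101 CPM in the WT and between 5.83 and 12.4 CPM in the Pdgfra-Cre:LmnaF/F libraries, and the *Serpina3n* point of Pdgfra-Cre:LmnaF/F replicate 4 stands at 1198 CPM.

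Each side of the split in Y-linked RNA holds a single library of one genotype, so the values on the 2 sides are a description. Among the libraries with Y-linked RNA, *Wfdc1* averaged 67.7 CPM in 3 WT libraries and was 5.83 CPM in the single Pdgfra-Cre:LmnaF/F library, 11.6-fold lower. Among those without, it was 101 CPM in the single WT library and averaged 11.1 CPM in 3 Pdgfra-Cre:LmnaF/F libraries, 9.13-fold lower. The sums of the dissociation and endothelial genes moved with genotype as given above, and their part in the *Wfdc1* difference was not tested. An antisense gene, *Gm32352*, overlaps *Wfdc1* on the opposite strand and is not listed in the count files, and whether the counting used the strand is not given in the sources used here.

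*Wfdc2* (ENSMUSG00000017723.11, chr2:164562413-164568510, plus strand), which encodes a secreted protein with a pair of WAP domains known from epididymis and other epithelia, was low. Its level was 1.68, 4.53, 8.31 and 0.31 CPM in the WT and 2.17, 0, 0.46 and 1.33 CPM in the Pdgfra-Cre:LmnaF/F replicates. The groups overlapped, and the highest WT library exceeded the lowest by more than the genotypes differed. No list of lung or other organ epithelium was among the marker lists, and the part of such RNA in this level was not tested. The log2 fold change of -1.87 had a standard error of 1.38 and a 95% interval from -4.82 to 1.08. It was -1.06 without WT replicate 3 and -2.58 without Pdgfra-Cre:LmnaF/F replicate 1. Where Y-linked RNA was present, the mean was 2.17 CPM in 3 WT libraries against 1.33 CPM in 1 Pdgfra-Cre:LmnaF/F library. Where it was not, the level was 8.31 CPM in 1 against a mean of 0.88 CPM in 3.

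*Slpi* (ENSMUSG00000017002.14, chr2:164354070-164389095, minus strand), the secretory leukocyte protease inhibitor, which blocks neutrophil elastase and cathepsin G, was at or below 3 counts in every library, with 3, 2, 0 and 0 counts in the WT and 1, 0, 0 and 0 counts in the Pdgfra-Cre:LmnaF/F replicates. This is at the floor of 3 counts used here, and no fold is given. In the 5 libraries at 0, a count of 0 allows a level of up to 0.24 to 0.473 CPM, which covers counting error only. The transcripts that neutrophils are known for were likewise scarce, since 6 neutrophil markers summed to at most 6.83 CPM in any library and *Elane*, the gene of neutrophil elastase, did not exceed 3 counts in any library. *Slpi* and *Wfdc2* lie in a cluster of WAP-domain and seminal vesicle genes on chromosome 2, of which 15 were listed, and *Wfdc2* alone passed the filter. The summed level of 8 mesothelial markers, cells of the heart's surface known to express *Slpi*, ranged from 14.1 to 35.7 CPM in the WT and from 8.58 to 20.5 CPM in the Pdgfra-Cre:LmnaF/F libraries.

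Among the serpins, *Serpinf1* (ENSMUSG00000000753.15, chr11:75409769-75422701, minus strand) encodes pigment epithelium-derived factor, a serpin without protease inhibition that is known to restrain vessel growth. Its level was 476, 783, 779 and 642 CPM in the WT and 396, 460, 334 and 457 CPM in the Pdgfra-Cre:LmnaF/F replicates. The groups did not overlap, although WT replicate 1 lay close above the highest Pdgfra-Cre:LmnaF/F library. The means were 670 ± 145 CPM and 412 ± 59.7 CPM (SD, n = 4 each), with a log2FC of -0.70 (SE 0.21, 95% interval -1.16 to -0.24). The means on the 2 sides of the split in Y-linked RNA were 634 CPM in 3 WT libraries against 457 CPM in 1 Pdgfra-Cre:LmnaF/F library where such RNA was present, and 779 CPM in 1 against 397 CPM in 3 where it was not. *Wfdc1* and *Serpinf1* were the 2 of the 7 tested genes whose Pdgfra-Cre:LmnaF/F libraries all lay below the WT libraries, as did 518 of all 13036 genes (3.97%). None of the 7 lay above without overlap, as 529 of all genes did (4.06%).

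*Serpine2* (ENSMUSG00000026249.10, chr1:79794197-79861180, minus strand) encodes protease nexin-1, which inhibits thrombin, urokinase and plasmin at the cell surface. Its level was 384, 463, 246 and 479 CPM in the WT and 780, 743, 390 and 477 CPM in the Pdgfra-Cre:LmnaF/F replicates. Replicates 1 and 2 of the Pdgfra-Cre:LmnaF/F libraries were above every WT library, and replicates 3 and 4 lay within the WT range. The log2FC was 0.61 (SE 0.27, 95% interval 0.03 to 1.18). It depended on the libraries compared, with means of 442 CPM in 3 WT libraries against 477 CPM in 1 Pdgfra-Cre:LmnaF/F library where Y-linked RNA was present, and 246 CPM in 1 against 638 CPM in 3 where it was not.

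*Serpina3n* (ENSMUSG00000021091.8, chr12:104406729-104414329, plus strand) encodes a secreted inhibitor of chymotrypsin-like proteases and granzyme B that is induced in acute-phase responses. Its level was 23.8, 232, 406 and 48.3 CPM in the WT and 195, 148, 189 and 1198 CPM in the Pdgfra-Cre:LmnaF/F replicates. The WT range held replicates 1 to 3 of the Pdgfra-Cre:LmnaF/F libraries, and replicate 4 was far above all others. The log2FC was 1.29 (SE 0.77, 95% interval -0.36 to 2.94) with all libraries, 0.0058 without that replicate and 2.13 without WT replicate 3, and the other 3 Pdgfra-Cre:LmnaF/F libraries averaged 177 ± 25.5 CPM (SD, n = 3) against 178 ± 178 CPM (SD, n = 4) in the WT. The same library carried the highest sums of 6 cardiomyocyte markers, 3122.5 CPM against 188 to 610 CPM in the other 7 libraries, and of 7 macrophage markers, 472 CPM against 48.6 to 182 CPM. Their part in its *Serpina3n* level was not tested. The 2 sides of the split in Y-linked RNA differed in direction, with a mean of 101 CPM in 3 WT libraries against 1198 CPM in 1 Pdgfra-Cre:LmnaF/F library where it was present, and 406 CPM in 1 against a mean of 177 CPM in 3 where it was not.

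*Serpina3g* (ENSMUSG00000041481.16, chr12:104236245-104241939, plus strand) lies in the same gene cluster and is known for inhibiting cysteine cathepsins inside cells rather than proteases outside them, so its place among secreted inhibitors rests on its family. It had 23, 11, 0 and 13 counts in the WT and 146, 92, 36 and 116 counts in the Pdgfra-Cre:LmnaF/F replicates, or 2.15, 5.53, 0 and 1.35 CPM and 15.1, 9.59, 4.14 and 9.67 CPM. The lowest Pdgfra-Cre:LmnaF/F library, replicate 3, lay below the highest WT library, replicate 2, which is also the shallowest. The log2 fold change of 2.21 had a standard error of 0.97 and a 95% interval from 0.14 to 4.27. It was 1.77 without WT replicate 3, the library at 0 counts, and 1.87 without Pdgfra-Cre:LmnaF/F replicate 1. In the other direction, it was 2.99 without WT replicate 2, 3.15 with 1 RUVr factor and 3.27 with the Y-linked covariate. Where Y-linked RNA was present, the mean was 3.01 CPM in 3 WT libraries against 9.67 CPM in 1 Pdgfra-Cre:LmnaF/F library. Where it was not, the level was 0 CPM in 1 against a mean of 9.61 CPM in 3. Of 1729 windows of 75 bases along the *Serpina3g* transcript, 154 (8.91%) occur identically in transcripts of related genes, among them *Serpina3f* and *Serpina3n*, against 29 of 1990 (1.46%) for *Serpina3n* and none for the other 6 genes. At the read length of 150 bases, no window of any of the 8 transcripts was shared identically, and alignments with mismatches were not examined.

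The listed *Serpina3* genes of the cluster did not share 1 pattern. *Serpina3f* was at 12.3 and 20.7 CPM in Pdgfra-Cre:LmnaF/F replicates 1 and 2, at 0.23 and 3.33 CPM in replicates 3 and 4, and at 0 to 3.52 CPM in the WT. The log2FC was 2.58 ± 1.21 SE (adjusted p = 0.421, edgeR). *Serpina3c* ranged from 4.47 to 12.1 CPM in the WT and from 3.34 to 25.7 CPM in the Pdgfra-Cre:LmnaF/F libraries, the highest in replicate 4 as for *Serpina3n* (log2FC 0.61 ± 0.60 SE, adjusted p = 0.772, edgeR). *Serpina3i* ranged from 0 to 2.40 CPM and from 0 to 6.67 CPM, again highest in replicate 4 (log2FC 1.13 ± 1.51 SE, adjusted p = 0.846, edgeR). *Serpina3b*, *Serpina3j* and *Serpina3m* failed the filter, and of these *Serpina3m* reached 8.67 CPM in Pdgfra-Cre:LmnaF/F replicate 4 and at most 0.561 CPM elsewhere.

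**Figure D2:**
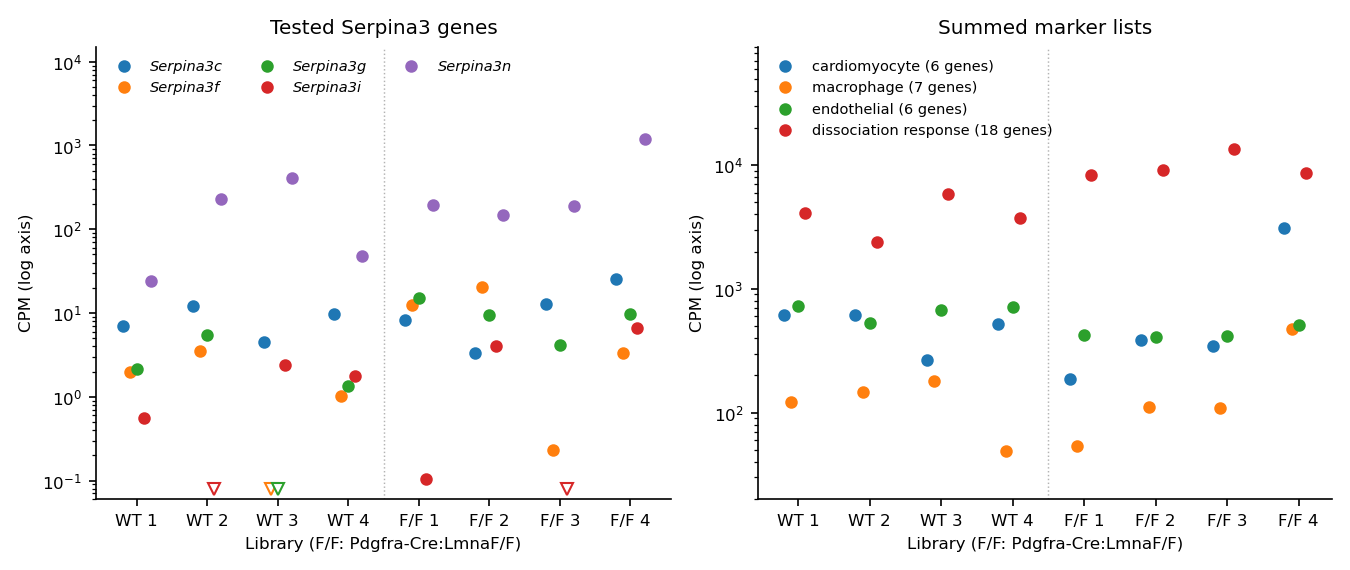
Left, level in CPM of the 5 tested *Serpina3* genes in each library on a log axis, with open triangles for libraries at 0. Right, summed CPM of 4 marker lists in each library on a log axis. Pdgfra-Cre:LmnaF/F replicate 4 has the highest *Serpina3n* (1198 CPM), *Serpina3c* (25.7 CPM), cardiomyocyte sum (3122.5 CPM) and macrophage sum (472 CPM), while the dissociation sum is higher in every Pdgfra-Cre:LmnaF/F library than in the WT.

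*Cst3* (ENSMUSG00000027447.6, chr2:148871722-148875692, minus strand) encodes cystatin C, a secreted inhibitor of cysteine cathepsins made by many cell types. Its level was 573, 577, 1136 and 695 CPM in the WT and 571, 675, 543 and 879 CPM in the Pdgfra-Cre:LmnaF/F replicates. The groups overlapped almost fully, with WT replicate 3 the highest. The means were 745 ± 267 CPM and 667 ± 153 CPM (SD, n = 4 each), and the log2FC of -0.16 (SE 0.25) had a 95% interval from -0.70 to 0.38. Its direction rested on WT replicate 3, since without that library the log2FC was 0.11. Where Y-linked RNA was present the mean was 615 CPM in the WT against 879 CPM, and where it was not 1136 CPM against 596 CPM.

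Levels of different genes were compared per kilobase of annotated exon. In the WT, *Cst3* stood first with 589 ± 211 CPM per kb (SD, n = 4), above *Serpinf1* with 284 ± 61.6, and both orders held in 4 of 4 libraries. *Serpina3n* (86.0 ± 86.4), *Wfdc1* (49.4 ± 13.1) and *Serpine2* (47.4 ± 12.9 CPM per kb) followed and did not differ beyond their spread. *Wfdc2* (3.25 ± 3.10), *Serpina3g* (1.07 ± 1.12) and *Slpi* (0.273 ± 0.403 CPM per kb) were far lower, with ranges that overlapped. In the Pdgfra-Cre:LmnaF/F libraries *Cst3* again stood first with 527 ± 121 CPM per kb, and *Wfdc1* stood at 6.36 ± 1.84, below *Serpine2* (72.1 ± 23.4) in 4 of 4 libraries and above *Serpina3g* (4.57 ± 2.12 CPM per kb) in 2 of 4. The place of *Serpine2* depended on the length used. Per kilobase of the transcript with the longest coding sequence it stood next after *Serpinf1* in the WT, at 178 ± 48.2 CPM per kb, above *Serpina3n* in 3 of 4 libraries.

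Of the other genes of the inhibitor families, 104 were listed and 38 tested. A gene was called at an adjusted p under 0.05 by the quasi-likelihood test of edgeR, a rule that called 53 of all 13036 genes (0.407%), and 31 of them in the lower direction (0.238%). None of the 38 was called by edgeR, 9 had an unadjusted p under 0.05 (5 lower and 4 higher), as had 1550 of all 13036 genes (11.9%), and 4 were called by DESeq2, which called 309 of 14339 genes (2.15%). The groups did not overlap for 5 genes that were lower and 2 that were higher, where the shares over all genes were 3.97% and 4.06%. The median log2 fold change of the 38 was 0.19, beside 0.02 over all genes tested. The lowest p-values belonged to *Pi16*, a surface marker of a fibroblast subset, *Ahsg*, the plasma protein fetuin-A, and *Timp1*, an inhibitor of matrix metalloproteinases.

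*Pi16* averaged 1239 ± 135 CPM in the WT and 435 ± 252 CPM in the Pdgfra-Cre:LmnaF/F libraries, giving a log2FC of -1.51 ± 0.40 SE (adjusted p = 0.134, edgeR). Its lowest value, 96.7 CPM, was in Pdgfra-Cre:LmnaF/F replicate 3. *Ahsg* had a log2FC of 2.65 ± 0.72 SE (adjusted p = 0.138, edgeR), from 0 to 11.2 CPM in the WT and from 11.8 to 44.7 CPM in the Pdgfra-Cre:LmnaF/F libraries. *Timp1* had a log2FC of 1.63 ± 0.49 SE (adjusted p = 0.192, edgeR), and 3 of the Pdgfra-Cre:LmnaF/F libraries were above all WT libraries while replicate 3, at 13.2 CPM, was below them. With that replicate left out, *Timp1* was the 1 inhibitor outside the 8 genes that edgeR called.

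Of the inhibitor genes with the highest mean level, *Serpinh1*, a chaperone of collagen in the endoplasmic reticulum, averaged 2921 ± 942 CPM in the WT and 1478 ± 598 CPM in the Pdgfra-Cre:LmnaF/F libraries (log2FC -0.98 ± 0.30 SE, adjusted p = 0.198, edgeR). *Serping1*, the inhibitor of the first complement component, averaged 2280.0 ± 233 and 1915 ± 237 CPM (log2FC -0.25 ± 0.20 SE, adjusted p = 0.690, edgeR). *Timp2* averaged 1607 ± 378 and 975 ± 177 CPM (log2FC -0.72 ± 0.23 SE, adjusted p = 0.202, edgeR). DESeq2 called *Serpinh1* and *Timp2* lower and *Timp1* and *Ahsg* higher.

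By family, the counts of unadjusted p-values under 0.05 stand beside 11.9% over all 13036 genes, of which 6279 were lower and 6757 higher. The other secreted serpins (8 tested) were lower for 2 genes and higher for 6 with no call and 1 unadjusted p under 0.05, and the clade B serpins (6 tested), which act mainly inside cells, were lower for 5 and higher for 1 with 2 such p-values. The other WAP-domain genes (3 tested) had none, and the collagen chaperone *Serpinh1* had 1. The cystatins and fetuins (4 tested), the Kunitz and Kazal inhibitors (5 tested), the alpha-2-macroglobulin family (2 tested) and the inter-alpha-trypsin inhibitor heavy chains with PI15 and PI16 (4 tested) had 1, 1, 0 and 1, and the metalloproteinase inhibitors (5 tested) had 2. None of these genes outside the 8 was called by edgeR.

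**Figure D3:**
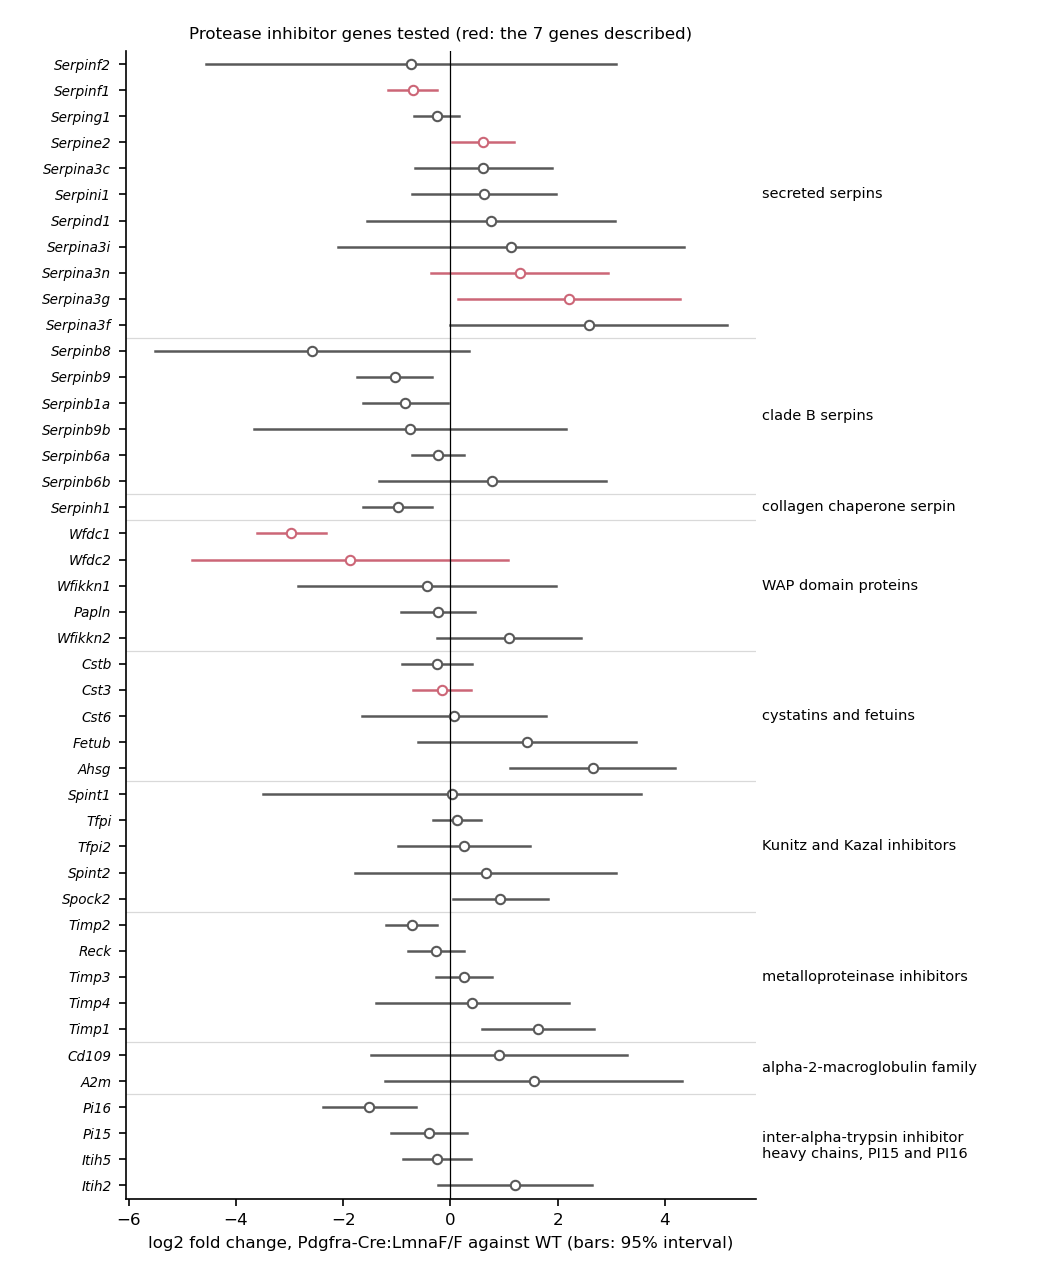
Log2 fold change of Pdgfra-Cre:LmnaF/F against WT with its 95% interval for 44 of the 45 protease inhibitor genes tested, grouped by family. The 7 tested genes described here are red, with *Wfdc1* at -2.97.

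A list of proteases and a list of receptors were examined in the same fit. The proteases, mainly serine proteases and cathepsins, were taken by gene symbol and not as known targets of these inhibitors. The receptors were those of inhibitors, of inhibitor-protease complexes or of proteases. Of 43 proteases and 14 receptors tested, none was called by edgeR, 3 of each had an unadjusted p under 0.05, where the share over all genes was 11.9%, and DESeq2, with 2.15% of all genes called, called 1, *Pcsk6*. The median log2 fold change was -0.08 for the proteases and 0.11 for the receptors. The groups did not overlap for 2 proteases that were lower and 1 that was higher, and for 1 receptor in each direction. The shares over all genes were 3.97% lower and 4.06% higher. *Pcsk6*, a proprotein convertase that activates secreted precursors, averaged 2664 ± 322 CPM in the WT and 1426 ± 409 CPM in the Pdgfra-Cre:LmnaF/F libraries, without overlap (log2FC -0.90 ± 0.23 SE, adjusted p = 0.123, edgeR).

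*Htra1*, a secreted serine protease of the matrix, had a log2FC of -0.61 ± 0.27 SE (adjusted p = 0.404, edgeR), and *Tmprss2*, a membrane serine protease of epithelia, was low at 0.503 to 2.24 CPM in the WT and 2.59 to 7.30 CPM in the Pdgfra-Cre:LmnaF/F libraries (edgeR adjusted p = 0.397). Among the receptors, *Vldlr*, an endocytic receptor that takes up serpin-protease complexes, averaged 60.2 ± 4.62 CPM and 95.8 ± 28.8 CPM (log2FC 0.67 ± 0.23 SE, adjusted p = 0.241, edgeR). *Lrp2*, or megalin, had a log2FC of -2.40 ± 0.91 SE (adjusted p = 0.308, edgeR) at 9.10 ± 6.03 CPM in the WT and 1.69 ± 1.32 CPM in the Pdgfra-Cre:LmnaF/F libraries. *Rpsa*, a ribosomal protein that also serves as a laminin receptor and binds pigment epithelium-derived factor, had a log2FC of 0.53 ± 0.24 SE (adjusted p = 0.401, edgeR).

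The genes around *Wfdc1* were compared to place its difference in its genomic setting. On the side before its start lie *Kcng4*, a potassium channel subunit, at 30.7 kb, *Taf1c* at 61.1 kb and *Hsdl1* at 91.2 kb, and on the other side *Tldc1* at 112 kb, *Cotl1* at 174 kb and *Klhl36* at 196 kb. None of these 6 was called. *Kcng4* had the lowest log2FC of the 6, with 29.9 ± 7.58 CPM in the WT and 13.6 ± 5.82 CPM in the Pdgfra-Cre:LmnaF/F libraries (log2FC -1.15 ± 0.38 SE, adjusted p = 0.226, edgeR). The log2 fold changes of the other 5 lay between -0.38 and 0.21, with edgeR adjusted p-values from 0.672 to 0.949. *Adad2*, *Dnaaf1* and *Atp2c2*, which lie in the same interval, did not pass the filter and reached at most 27 counts in a library.

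**Figure D4:**
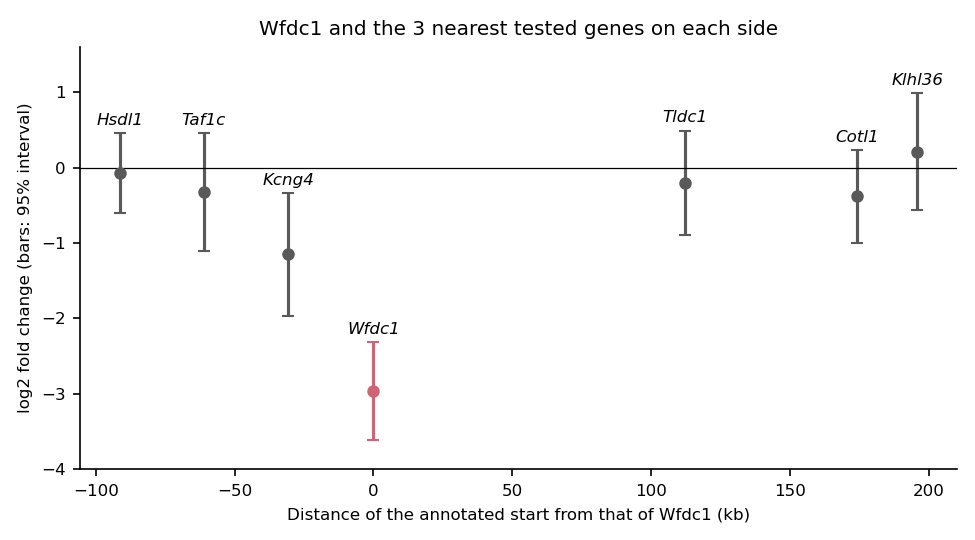
Log2 fold change with its 95% interval for *Wfdc1* (red) and the 3 nearest tested genes on each side, against the distance of their annotated starts from that of *Wfdc1* in kb. *Wfdc1* is at -2.97, *Kcng4* at -1.15, and the other 5 genes lie between -0.38 and 0.21.

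The 5 genes whose levels over the 8 libraries were most like those of *Wfdc1* were found by the root mean square difference of log2 CPM after the mean of each gene was subtracted. They were *Col4a4*, a chain of basement membrane collagen, at a distance of 0.445, *Lsamp*, a cell adhesion protein, at 0.524, *Fgf18*, a fibroblast growth factor, at 0.575, *Selenbp2*, a selenium-binding protein, at 0.582, and *Lamc3*, a laminin chain, at 0.591, where the median over 13035 genes was 1.62. These distances are a description over 8 libraries that share the genotype split, so genes with a like difference between the genotypes score as near. All 5 were lower in every Pdgfra-Cre:LmnaF/F library than in any WT library and lowest in replicate 4. *Col4a4*, the nearest, was at 150, 251, 273 and 184 CPM in the WT and at 50.9, 54.9, 41.6 and 24.8 CPM in the Pdgfra-Cre:LmnaF/F replicates. Within the WT, *Lsamp* and *Selenbp2* shared with *Wfdc1* a lowest value in replicate 2 and a highest one in replicate 3, and the other 3 genes did not.

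**Figure D5:**
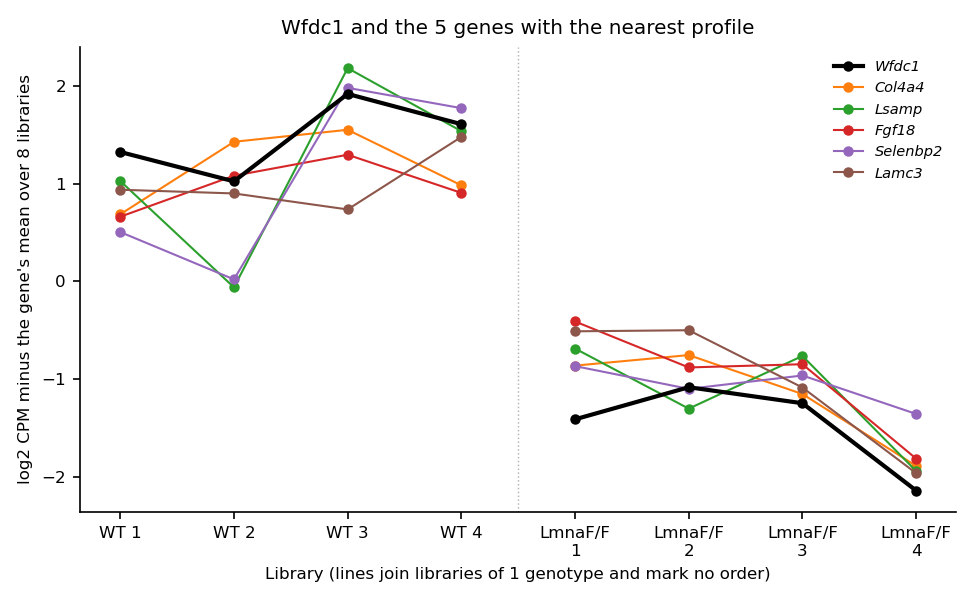
Log2 CPM minus the mean of each gene over the 8 libraries for *Wfdc1* (thick black line) and the 5 genes with the nearest profile. All 6 genes are higher in each WT library than in each Pdgfra-Cre:LmnaF/F library and lowest in Pdgfra-Cre:LmnaF/F replicate 4.

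None of the other 6 tested inhibitors was near *Wfdc1* on this scale. The nearest was *Serpinf1* at 1.22, and the farthest were *Serpina3n* at 2.73 and *Serpina3g* at 3.16. Among the 7 tested genes, the smallest distance was between *Serpinf1* and *Cst3* at 0.396, followed by *Serpine2* and *Cst3* at 0.741. The distance is not scaled by how much a gene varies, so genes that vary little score as near each other. A gene that did not vary would lie at 1.52 from *Wfdc1*. The log2FC of the near genes differed, at -0.70 for *Serpinf1*, -0.16 for *Cst3* and 0.61 for *Serpine2*.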

How the data were processed

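RNA of sorted cardiac fibroblasts was analysed in 4 libraries of WT and 4 of Pdgfra-Cre:LmnaF/F mice, grouped by the sample titles. Paired reads were mapped by the authors (HISAT2, mm10) and assigned to GENCODE genes (featureCounts). The authors deposited raw whole-number counts, without the RUV factors that the methods name. The submitters' processing notes also name FastQC and DESeq2. Each file lists 18957 genes.

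Counts were scaled by TMM, filtered with filterByExpr (13036 genes left) and tested between genotypes by quasi-likelihood in edgeR 4.0.16 (R 4.3.3), with Benjamini-Hochberg adjustment over all tested genes, and a gene was called at an adjusted p under 0.05. Sums of markers were compared by exact two-sided permutation tests over 70 assignments. Log2 CPM used a prior count of 2. Positions are from GENCODE M21. Python 3.11.15 was used for summaries. The fit was tested on simulated counts with known folds, where many changed genes were not called. A gene that was not called is therefore not shown to be unchanged. The sources used here do not state that each library came from a separate mouse, and p-values measure the spread between these libraries, and depths (2080555 to 12502949 counts) cover counting error only.

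The 8 genes and the gene lists were chosen with earlier results of these data known. Genes outside the 8 were named by a rule: all called genes and the 3 lowest p-values of each kind (inhibitors, proteases, receptors), the 5 most abundant inhibitors, the 3 tested neighbours of *Wfdc1* on each side, the *Serpina3* cluster and the 5 nearest profiles. The values of 1 tested inhibitor gene are not reported here. Alternatives were DESeq2 1.42.0, RLE and upper-quartile scaling, no filter, at least 10 counts in every library, 1 RUVr factor, a Y-linked covariate, a replicate block and leaving out each library.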

Additional observations from a re-analysis of the deposited data

Results flagged for a closer look

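Within the groups of 4 libraries, the gap of the highest or lowest value to its nearest neighbour was set against the whole range for the 7 tested genes. Of the 14 groups examined, 1 held a library that stood apart, and chance alone sets apart about 1 group in 20. It was *Serpina3n* in Pdgfra-Cre:LmnaF/F replicate 4, at 1198 CPM, where the gap made up 0.956 of the range.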

How the results depend on the processing

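The log2 fold change of *Wfdc1* lay between -3.31 and -2.94 under the 8 alternative fits and between -3.11 and -2.78 without each library in turn. These fits share the libraries whose difference led to the choice of the gene, so they describe the effect of the processing and are no independent support. Within the libraries with Y-linked RNA, a split chosen after seeing the data, the log2 ratio of its mean levels was -3.54. Over all genes, 53 were called, against 309 with DESeq2, 274 without the filter, 81 with 1 RUVr factor and 114 with the Y-linked covariate, and from 13 (without WT replicate 4) to 76 (without Pdgfra-Cre:LmnaF/F replicate 4) with 1 library left out. Counts of 24 or fewer also came without WT replicates 1 and 2 and without Pdgfra-Cre:LmnaF/F replicate 3 (17), and 26 without replicate 2. Of the 7 tested genes, chosen with this contrast known, DESeq2 called 2 (*Wfdc1* and *Serpinf1*) and each other fit called 1, and nothing is read from these counts. Of the other inhibitors, 4 were called by DESeq2, 5 without the filter (among them *Ahsg*, *Pi16*, *Timp1* and *Serpinb9*), 1 with the Y-linked covariate (*Serpinb9*), and 0 to 1 with a library left out (*Timp1* without Pdgfra-Cre:LmnaF/F replicate 3). *Serpinb9* was named after its values were seen. Of the proteases and receptors, DESeq2 called 1. The cause of these differences was not tested. Without Pdgfra-Cre:LmnaF/F replicate 4, the differences of the macrophage and cardiomyocyte sums changed sign.

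Both genotypes use replicate numbers 1 to 4, and libraries of equal number did not deviate together (correlations from -0.03 to 0.04), so the numbers were not taken as pairs. With the replicate block 36 genes were called, and the log2 fold change of *Wfdc1* was -2.98. Depth limits *Slpi*, *Wfdc2* and *Serpina3g*, and the part of the split in Y-linked RNA in the differences was not tested.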
